A study of Homo sapiens with 24 samples.

Results

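The sites described here are the places in the genome of RD cells where peaks were called for tagged TWIST2, for MYOD in control cells, or for both. Each peak was set to its centre plus and minus 100 bp, and a site counted for a factor when both of its lists held a peak there, each the other's nearest. A TWIST2 site and a MYOD site that were each other's nearest and whose windows overlapped, with centres up to 200 bp apart, made 1 common site. The 233542 peaks of the 2 Ty1 lists and the 2 MYOD control lists, out of 564552 peaks in all 14 lists of the series, gave 66701 sites. Of these, 10566 were common, 37365 were TWIST2-only and 18770 were MYOD-only, names that refer to these lists and this pairing alone.

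RD is an established human cell line of fusion-negative rhabdomyosarcoma, a childhood soft-tissue tumour with features of skeletal muscle precursors. ChIP-seq, which sequences the DNA recovered with an antibody from fixed chromatin, was run with antibodies to Ty1, MYOD, the histone mark H3K27ac and SMARCA4 (BRG1), in 24 samples of which 14 had a peak list, 2 libraries per group. The Ty1 libraries came from RD cells labelled 3xTy1-TWIST2, in which the Ty1 epitope tag stands in for a TWIST2 antibody. The MYOD, H3K27ac and SMARCA4 libraries came from control RD cells and from RD cells labelled TWIST2 KD. SMARCA4 cells carry the set name RD-2 and all others RD-1. The labels do not say what the set names mean, how the knockdown was made, whether the tagged TWIST2 was an added gene or the cells' own, what drove it, or whether any line was 1 clone. TWIST2 and MYOD were therefore measured in different samples of the line, and no Ty1 library of untagged cells was used here. The peak lists hold no expression values, so muscle markers, the tagged protein and the extent of the knockdown were not checked.

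MYOD is the basic helix-loop-helix factor that can start the skeletal muscle programme, and it binds E-boxes, short DNA motifs, as a dimer with E proteins. TWIST2 belongs to the same structural family, also binds E-boxes as dimers with E proteins, and is known from mesenchymal progenitors, where it restrains muscle differentiation. H3K27ac is the acetylation of histone H3 that marks active promoters and enhancers, and SMARCA4 is an ATPase of the SWI/SNF complexes that move nucleosomes.

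The lists differed in length. Both Ty1 lists were the longest, with 74087 and 71100 peaks of 239 and 231 bp, against 44974 and 43381 MYOD control peaks of 159 and 179 bp. The H3K27ac control lists held 36679 and 34932 peaks of varying width, with medians of 1835 and 1870 bp. SMARCA4 control list 2, with 25013 peaks, stood apart from list 1, with 11835. The Ty1, MYOD and H3K27ac lists give positions alone, so the depth behind a peak is unknown, and a site absent from a list is one that was not called there. The labels do not say that libraries of a group came from separate cultures, so spread between libraries may be technical. With 2 libraries a two-sided exact sign-flip test cannot go below 0.5, and with 2 against 2 an exact permutation test cannot go below 0.333.

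TWIST2 and MYOD shared a minority of their sites. Common sites made up 22.0% of the 47931 TWIST2 sites (95% Wilson interval 21.7% to 22.4%) and 36.0% of the 29336 MYOD sites (35.5% to 36.6%). These and all later intervals cover counting error only. Over the 4 pairings of 1 Ty1 with 1 MYOD list, 23.7% to 25.1% of Ty1 peaks and 39.6% to 40.5% of MYOD peaks were paired, so the choice of libraries moved the shares by 1.36 and 0.853 percentage points. Between the 2 lists of the same factor, 64.7% and 67.4% of Ty1 peaks and 65.2% and 67.6% of MYOD peaks were paired. The pairing across factors was thus below the pairing between replicates in each case. For Ty1 peaks list length fixed this order, since each MYOD peak can pair with only 1 Ty1 peak and the MYOD lists were too short. MYOD peaks had no such bound, as the Ty1 lists were longer. Both shares count the same common sites, so the gap between them is that between the numbers of TWIST2 and MYOD sites and says nothing more of the factors. With 43381 peaks taken from the top of each list, which brings those numbers together by construction, the shares were 27% of TWIST2 sites and 29.7% of MYOD sites.

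H3K27ac in control cells separated TWIST2-only sites from both other classes. An H3K27ac peak overlapped 24.0% of TWIST2-only sites in control library 1 and 22.6% in library 2. At common sites the shares were 79.4% and 77.4%. At MYOD-only sites they were 76.3% and 74.5%. TWIST2-only sites were thus low in both libraries, and their values did not overlap those of the classes bound by MYOD. The mean difference was 55.1 ± 0.380 percentage points (SD, n = 2 libraries) between common and TWIST2-only sites, and 52.1 ± 0.259 points between MYOD-only and TWIST2-only sites. Each had a two-sided exact sign-flip p of 0.5, the smallest possible, and both differences were far larger than the spread between libraries. Counting a site only when both control lists had H3K27ac, 7889 common sites (74.7%), 13507 MYOD-only sites (72.0%) and 7810 TWIST2-only sites (20.9%) were called, against a background of 43.8% of all 66701 sites.

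Common sites stood 3.04 ± 0.121 points above MYOD-only sites (SD, n = 2 libraries; 3.13 and 2.96 in the libraries; exact sign-flip p = 0.5). That small difference depended on how sites were matched. Common sites lay nearer the top of the MYOD lists, with a median list position of 67.7 against 55.7 for MYOD-only sites, on a scale where 100 is the first peak of a list. When MYOD sites were split into 10 equal groups by list position and compared within them, which was added after seeing the data, the mean difference of common minus MYOD-only sites was -1.91 points (-1.73 and -2.08 in the 2 libraries), and common sites were the lower class in 9 and 8 of the 10 groups. The unmatched difference was 1.47 points when a peak in 1 list sufficed for a site, 4.95 points with the same number of peaks from each list and 5.38 points with windows of plus and minus 250 bp.

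**Figure D1:**
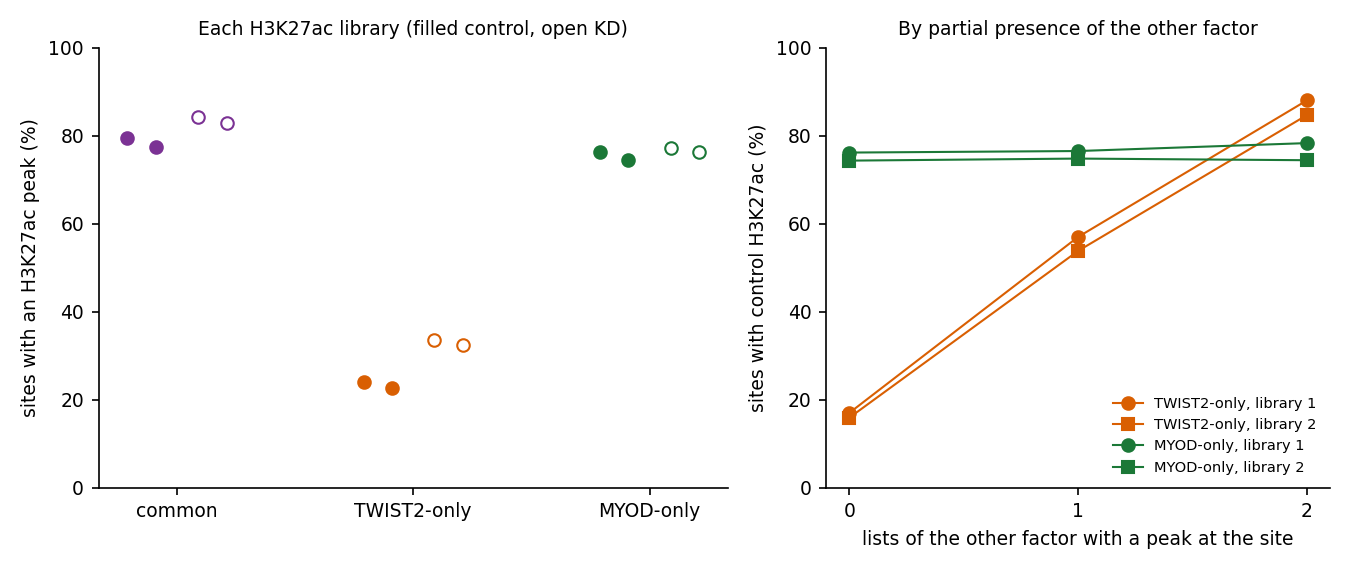
Left: share of sites overlapped by an H3K27ac peak (%, y axis) in each class (x axis), 1 point per H3K27ac library, filled for control and open for TWIST2 KD, with 95% Wilson intervals that are smaller than the points. Right: control H3K27ac (%) at TWIST2-only and MYOD-only sites by the number of lists of the other factor with a peak there; TWIST2-only sites run from 17.0% to 88.0% in library 1 while MYOD-only sites stay between 76.2% and 78.3%.

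Some sites of 1 factor had a peak of the other in a single list, or in both lists without forming a common site under the pairing rule. Of TWIST2-only sites, 30978 (82.9%) had no peak in either MYOD control list, 6178 had a peak in 1 list and 209 in both. Their H3K27ac share in control library 1 was 17.0%, 57.0% and 88.0% in that order, and in library 2 it was 15.9%, 53.8% and 84.7%. H3K27ac at TWIST2-only sites thus went up with each further MYOD list in both libraries. MYOD-only sites showed no such order: with 0, 1 and 2 Ty1 lists (12991, 5599 and 180 sites) the shares were 76.2%, 76.5% and 78.3% in library 1 and 74.4%, 74.8% and 74.4% in library 2. Over these 3 groups the lowest and the highest share were 2.15 points apart in library 1 and 0.465 points apart in library 2, while the libraries differed by 1.71 to 3.89 points within a group.

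The deposited order of peaks is not chromosome order, since the first 100 peaks of each Ty1 and MYOD control list came from 14 to 16 chromosomes. The order was alike between libraries, with Spearman's rho of 0.898 between the Ty1 lists over 47931 sites and 0.881 between the MYOD control lists over 29336 sites. These are descriptions across sites, which are not independent replicates. What the order ranks is not given in the sources used here, so list position was used as a place in a list and not as a binding strength.

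Sites high in a factor's lists were more often shared. From the group placed last in the TWIST2 lists to the group placed first, out of 10 equal groups, the share of TWIST2 sites that were common went from 8.07% to 39.6%. From the last to the first such group of MYOD sites, the share of MYOD sites that were common went from 24.1% to 54.4%. Both series increased at every step. Among common sites the 2 factors' list positions had a Spearman's rho of 0.428 over 10566 sites, given as a description. The H3K27ac gap between common and TWIST2-only sites was present in every group by TWIST2 position, a comparison likewise added after seeing the data. In the last group H3K27ac library 1 marked 67.7% of common and 10.4% of TWIST2-only sites, and library 2 marked 66.7% and 9.89%. In the first group the values were 86.4% and 39.1% in library 1 and 84.7% and 37.1% in library 2. Averaged over the 10 groups, the gap was 51.9 and 51.5 points in the 2 libraries. TWIST2-only sites of the first group therefore had less H3K27ac than common sites of the last group, in both libraries. For MYOD sites, H3K27ac moved with list position in both classes alike, from 47.3% and 46.5% (libraries 1 and 2) of common sites in the last group to 96.0% and 95.9% in the first, and from 46.5% and 44.3% to 96.4% and 95.1% of MYOD-only sites.

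**Figure D2:**
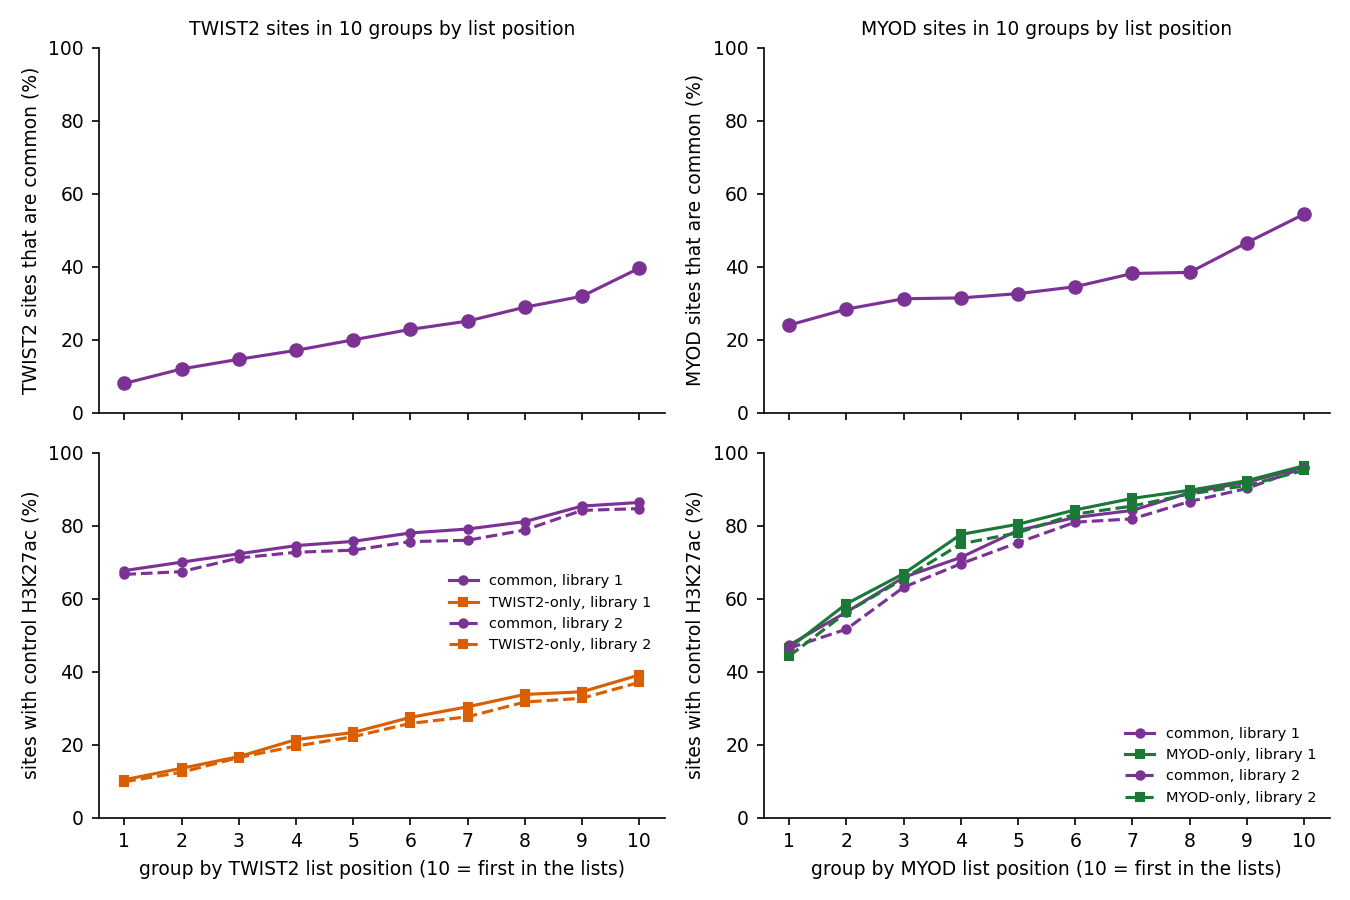
Top: share of TWIST2 (left) and MYOD (right) sites that were common (%), in 10 equal groups by list position, where group 10 holds the sites first in the lists. Bottom: share of those sites with an H3K27ac peak in control library 1 (solid) and 2 (dashed), for common sites and for sites of the single factor; the curves lie far apart for TWIST2 sites and close together for MYOD sites.

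At common sites the centres of the 2 factors lay close together, but farther apart than those of replicate libraries. The median distance between the TWIST2 and MYOD site centres was 41 bp (quartiles 17.5 and 78.5 bp), and 57.9% of common sites were within 50 bp. Because a site centre averages 2 libraries, single lists make the fairer comparison. The 4 pairings of 1 Ty1 with 1 MYOD list gave medians of 47 to 48 bp at these sites. The 2 Ty1 lists lay a median 32 bp apart and the 2 MYOD control lists 35 bp apart. The distance across factors was thus 12 to 16 bp longer than between libraries of 1 factor, which is the positional error of a peak centre here. The 200 bp limit that defines a common site bounds all of these distances but those of the single-list pairings.

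The distance was shorter where peaks stood high in their lists. In 4 equal groups of rising mean list position over the 4 lists, the median TWIST2 to MYOD distance was 49, 43, 40 and 32 bp. Replicate distances shrank over the same groups, from 41 to 26 bp between the Ty1 lists and from 50 to 25 bp between the MYOD lists. The distances across factors are between site centres averaged over 2 libraries, and replicate distances are between single peaks. Their sizes within a group are therefore not comparable. Without matching by list position, H3K27ac varied little with the distance and in no single direction. In library 1 its share was 79.7% of common sites with centres within 10 bp, 78.5% at 10 to 25 bp, 77.6% at 25 to 50 bp, 80.6% at 50 to 100 bp, 80.6% at 100 to 150 bp and 81.8% at 150 to 200 bp. In library 2 the shares were 78.5%, 76.6%, 75.8%, 77.6%, 79.4% and 79.8%, so the lowest value was at 25 to 50 bp in both libraries and the highest at 150 to 200 bp. The median MYOD list position fell over the same distances, from 74.8 within 10 bp to 59.8 at 150 to 200 bp. Its part in the H3K27ac values was not tested. The 594 common sites 150 to 200 bp apart lay just inside the limit, and 391 pairs of a TWIST2 and a MYOD site lay just outside it, 200 to 250 bp apart.

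Beyond the limit the 2 factors kept neighbours at short range. There were 1149 pairs of a TWIST2 with a MYOD site at 200 to 400 bp, 2493 at 400 to 1000 bp and 2105 at 1000 to 2000 bp. Per 100 bp of distance this was 574.5, 415.5 and 210.5 pairs, against 5283.5 within 200 bp. Pairs of 2 TWIST2 sites numbered 1103 at 400 to 1000 bp and pairs of 2 MYOD sites 1385. Same-factor pairs were absent below 200 bp, where the lists themselves hold no 2 centres closer than 328 and 346 bp for Ty1 and 208 and 258 bp for MYOD, so only pairs across factors can be read at the shortest range.

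**Figure D3:**
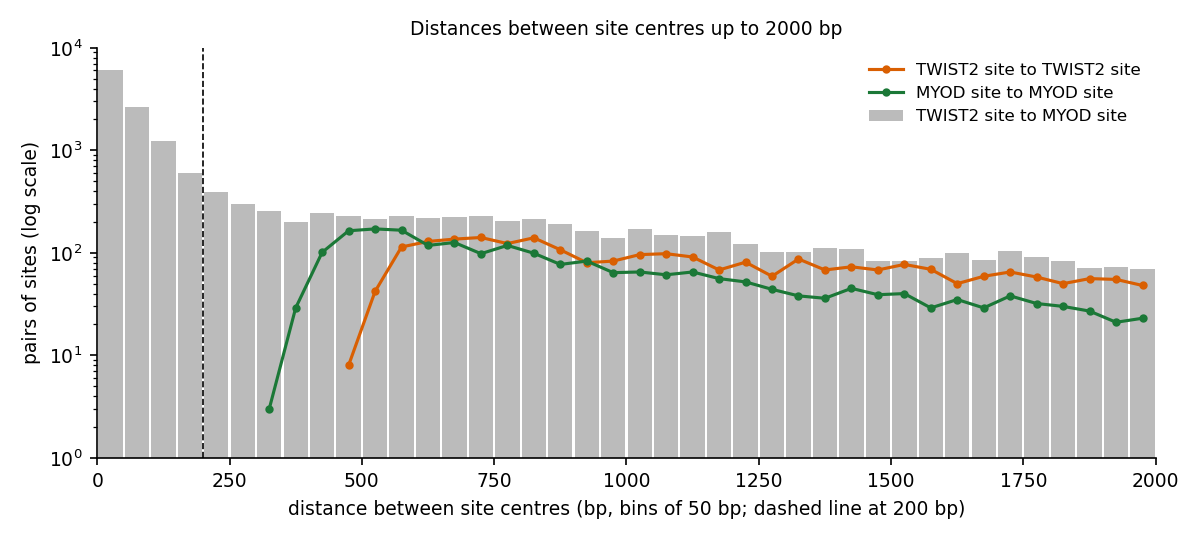
Number of pairs of sites (y axis, log scale) by the distance between their centres (x axis, bp, bins of 50 bp) up to 2000 bp. Bars are pairs of a TWIST2 and a MYOD site, the lines are pairs of the same factor, and the dashed line marks the 200 bp limit of a common site; bars fall steeply up to about that limit and slowly after it.

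Common sites also sat deeper inside H3K27ac peaks. Place was measured as the share of the way from the edge of the peak to its middle, with 100% at the middle. The median place was 75.8% and 76.3% at common sites in control libraries 1 and 2, 72.6% and 72.6% at MYOD-only sites, and 60.6% and 60.1% at TWIST2-only sites. In base pairs, the median distance to the nearer edge was 882 and 878 bp for common, 832.5 and 835.5 bp for MYOD-only, and 666 and 671.5 bp for TWIST2-only sites. The peaks that held them were of similar width, with medians of 2334 and 2308 bp for common, 2317 and 2302 bp for MYOD-only and 2170 and 2190 bp for TWIST2-only sites. The 3 classes kept this order in both libraries. They were not matched by list position, and its part in the order was not tested. Most TWIST2-only sites were not near a called acetylated region: of the 27755 with no H3K27ac in either control list, the median distance to the nearest H3K27ac peak was 24759 bp, and 15.4% were within 5 kb. The 1879 common sites without H3K27ac lay a median 17422 bp from a peak, and the 3972 such MYOD-only sites 16316 bp.

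MYOD-only sites most often had a same-class neighbour at the shortest range. A neighbour of the same class lay within 1000 bp of 8.04% of MYOD-only sites, 3.22% of TWIST2-only sites and 1.72% of common sites. TWIST2-only sites were the most numerous class, so the order at this range was not that of the class sizes. The smallest gap between centres was shorter in the MYOD than in the Ty1 lists, and its part in this order was not tested. Within 12.5 kb the order was another: 40.3% of TWIST2-only, 34.0% of MYOD-only and 20.4% of common sites had a same-class neighbour. This second order did not hold in every setting. With the same number of peaks from each list the shares were 35.7% and 35.5%, and with MYOD control library 1 or 2 left out MYOD-only sites were ahead, at 49.3% against 37.7% and at 51.9% against 37.3%. When 1 list of a factor sufficed for a site the order held, with 59.5% of TWIST2-only, 56.3% of MYOD-only and 41.1% of common sites.

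The 2 factors differed in how far they lay from each other. From a MYOD-only site the nearest TWIST2 site of any class was a median 8958.5 bp away, and 2.45% had none within 100 kb. From a TWIST2-only site the nearest MYOD site was a median 22718 bp away, and 17.0% had none within 100 kb. TWIST2 sites were also the more numerous, and the part of their number in the first distance was not tested.

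Joining sites of any class at gaps of up to 12.5 kb gave 38745 clusters, of which 15374 held 2 or more sites. Singletons took up 39.7% of TWIST2-only, 31.4% of common and 27.8% of MYOD-only sites. As clusters grew, the make-up shifted away from TWIST2-only sites, which made up 63.4% of singletons and 46.8% of sites in clusters of 5 to 9. Common sites went from 14.2% to 18.7% over the same range, MYOD-only sites from 22.4% to 34.5%, and sites with H3K27ac in both control lists from 30.3% to 58.7%. By content, 3533 clusters of 2 or more sites were made of TWIST2-only sites alone, and 11.4% of their 7986 sites had H3K27ac in both lists. In the 872 clusters of MYOD-only sites alone it was 75.5% of 1901 sites, and in the 1905 clusters with all 3 classes 63.9% of 9120 sites. The share in clusters of TWIST2-only sites alone was below the 20.9% over all TWIST2-only sites.

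**Figure D4:**
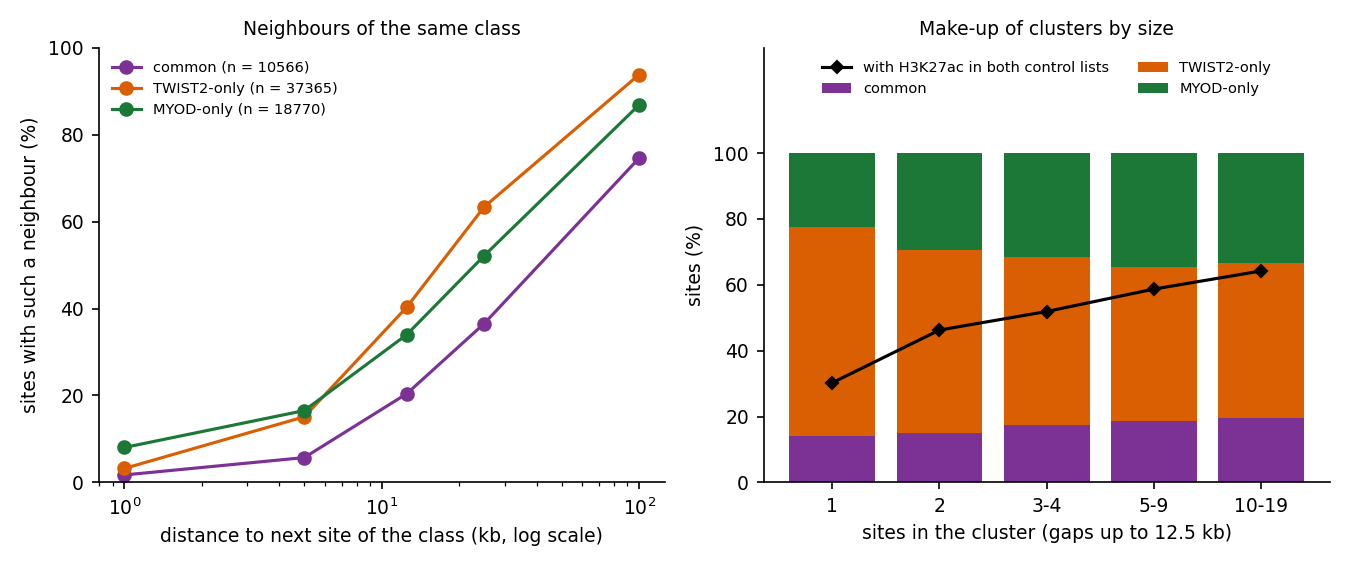
Left: share of sites of each class (%) with another site of the same class within 1, 5, 12.5, 25 or 100 kb (x axis, log scale). Right: make-up by class (stacked bars, %) of clusters of increasing size, with the share of their sites that had H3K27ac in both control lists as black diamonds; the TWIST2-only part shrinks from 63.4% of singletons to 46.8% in clusters of 5 to 9 sites.

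Named clusters, all in hg19 coordinates, show these patterns at single loci. Genes are not named, because no annotation of that build was used. The cluster with the most common sites spanned 82370 bp on chromosome 17, from 78748137 to 78830506, and held 7 common, 6 TWIST2-only and 3 MYOD-only sites. Of its 16 sites 13 had H3K27ac in both control lists, and 12 and 10 H3K27ac peaks of these lists touched the cluster. The cluster with the most TWIST2-only sites was almost as long, 81236 bp on chromosome 3 from 124792002 to 124873237, with 11 TWIST2-only sites, 1 common and 1 MYOD-only site. It held 1 H3K27ac peak per control list, of 1275 and 1089 bp, and 1 of its 13 sites had H3K27ac in both. The cluster with the most MYOD-only sites, 109628 bp on chromosome 9 from 116328483 to 116438110, held 8 MYOD-only, 7 TWIST2-only and 5 common sites, 20 in all, the highest number in any cluster. The H3K27ac peaks that touched it had full widths of 32861 and 32605 bp in all, part of which lay beyond its ends. In both lists, 14 of its sites had H3K27ac.

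**Figure D5:**
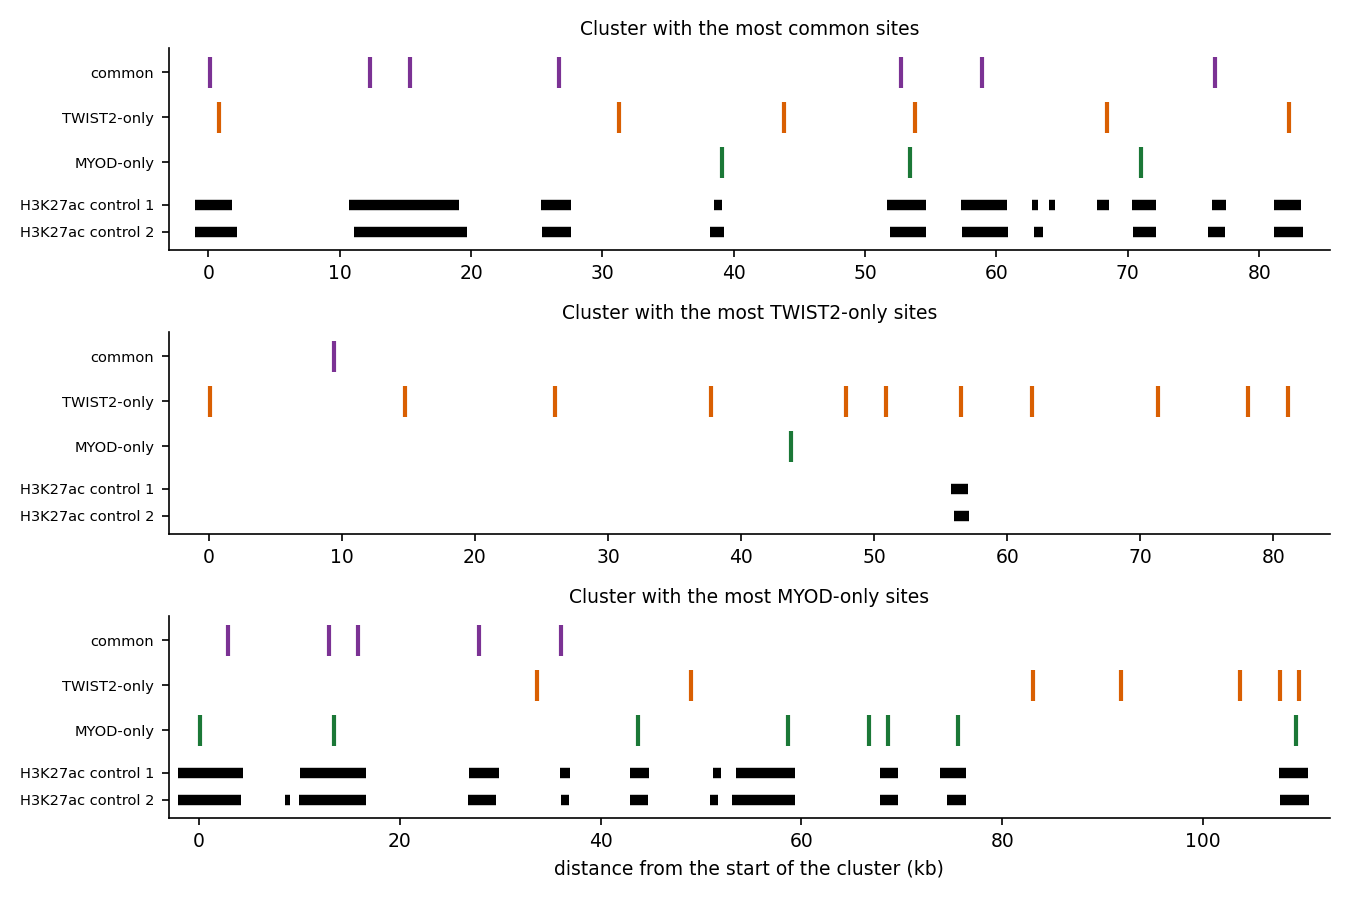
Maps of the clusters with the most common (top), TWIST2-only (middle) and MYOD-only sites (bottom), with distance from the start of the cluster in kb. Coloured ticks are sites of each class and black bars the H3K27ac peaks of control lists 1 and 2; the middle cluster, with 11 TWIST2-only sites, holds 1 H3K27ac peak per list.

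Not every TWIST2-only cluster was without H3K27ac. The cluster on chromosome 10 from 3495396 to 3542832 held 9 TWIST2-only sites, 1 MYOD-only site and no common site, and 7 of its 10 sites had H3K27ac in both lists. On chromosome 7 from 137618428 to 137687344, 6 of 13 sites had it beside 9 TWIST2-only sites, and on chromosome 11 from 125974399 to 126042680, 10 of 14 sites beside 8 TWIST2-only sites. Further clusters rich in MYOD-only sites were on chromosome 19 from 39321907 to 39391202 (6 MYOD-only, 12 of 14 sites with H3K27ac in both lists), chromosome 16 from 85128818 to 85220846 (6 MYOD-only, 10 of 13) and chromosome 4 from 154409668 to 154485951 (6 MYOD-only, 7 of 11). The further clusters with the most common sites, 5 each, were the one on chromosome 9 described above, another on the same chromosome from 135989101 to 136044149 (7 of 10 sites with H3K27ac in both lists) and one on chromosome 12 from 125200079 to 125259483 (9 of 10).

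The 5 highest-placed sites of each class differed in the same way. All 5 common sites had an H3K27ac peak in both control lists. They included 1 on chromosome 1 centred at 40112100, with TWIST2 and MYOD centres 13.5 bp apart under H3K27ac peaks of 3701 and 3677 bp, and 1 on chromosome 2 at 227055686, 14 bp apart under peaks of 9680 and 9192 bp. The site on chromosome 20 at 57909895 had centres 11 bp apart and peaks of 6729 and 5940 bp. The other 2, placed highest of the 5, were on chromosome 8 at 31880996 and 23836930, with centres 72 and 22.5 bp apart. All 5 had MYOD peaks in both KD lists, as had all 5 MYOD-only sites. Among the 5 TWIST2-only sites, only that on chromosome 20 at 32150271 had them in both. All 5 MYOD-only sites also had H3K27ac in both control lists, under peaks of 2199 to 14995 bp; the first 2 were on chromosome 1 at 152081324, with a TWIST2 site 609.5 bp away, and on chromosome 10 at 82012464, with the nearest TWIST2 site 15705.5 bp away. Of the 5 TWIST2-only sites, 1 had H3K27ac in both control lists, the site on chromosome 20 at 48780315 under peaks of 4449 and 4372 bp. The sites on chromosome 20 at 32150271, chromosome 16 at 21552417 and chromosome 3 at 124905791 had none in either, and that on chromosome 8 had it in 1 list. The chromosome 3 site lay 70045.5 bp from the nearest MYOD site, on the same chromosome as the TWIST2-only cluster named above.

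Across chromosomes there were 1.99 TWIST2-only sites per MYOD-only site. The ratio was lowest on chromosome 19, at 0.964 (875 TWIST2-only, 908 MYOD-only and 423 common sites), and highest on chromosome 18, at 2.59 (931, 359 and 225). Chromosome 19 also had the highest share of TWIST2 sites that were common, 32.6%, and the highest share of TWIST2-only sites with H3K27ac in both lists, 40.9%. MYOD-only sites did not fall below 65.0% with H3K27ac in both lists on any chromosome listed, and TWIST2-only sites did not exceed 40.9%, so the classes did not overlap. The number of gene copies in the cells was not measured here. At the scale of 1 Mb, TWIST2-only sites outnumbered MYOD-only sites in 2446 of 2790 windows with a site and MYOD-only sites led in 253. The largest TWIST2-only excess was on chromosome 11 from 128000001 to 129000000, with 44 TWIST2-only, 7 MYOD-only and 8 common sites, of which 18 had H3K27ac in both lists. Next were chromosome 2 from 151000001 to 152000000 (42, 7 and 4) and chromosome 3 from 124000001 to 125000000 (39, 8 and 4), which holds the TWIST2-only cluster above. The largest MYOD-only excess was on chromosome 14 from 105000001 to 106000000, with 33 MYOD-only, 10 TWIST2-only and 15 common sites, of which 40 had H3K27ac in both lists. The others were on chromosome 8, with 29 MYOD-only and 10 TWIST2-only sites, and on chromosome 17 from 79000001 to 80000000, with 41 MYOD-only, 26 TWIST2-only and 16 common sites.

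SMARCA4 in control cells was most frequent at common sites and least frequent at TWIST2-only sites. A SMARCA4 peak lay at 23.5% of common sites in control library 1 and 44.8% in library 2. At MYOD-only sites the shares were 16.2% and 32.2%. At TWIST2-only sites they were 3.24% and 7.99%. The longer second list gave the higher value in every class, but within each library the order of the classes was the same. Common exceeded MYOD-only sites by 7.37 and 12.7 points and TWIST2-only sites by 20.3 and 36.9 points (exact sign-flip p = 0.5 for each). Sites were not matched by list position here. Common sites lay nearer the top of the MYOD lists than MYOD-only sites, and the part of that in the SMARCA4 difference was not tested. Both SMARCA4 control lists held a peak at 1592 common sites (15.1%), 1716 MYOD-only sites (9.14%) and 489 TWIST2-only sites (1.31%), against 5.69% of all sites. These cells carry another set name than those of the TWIST2 and MYOD lists.

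In TWIST2 KD cells more TWIST2-only sites had H3K27ac. The share was 33.6% and 32.4% in the KD libraries, against 24.0% and 22.6% in control, a difference of 9.70 points of means (23.3 ± 1.03% and 33.0 ± 0.791%, SD, n = 2 each; exact two-sided permutation p = 0.333). Common sites went from 79.4% and 77.4% to 84.2% and 83.0%, and MYOD-only sites from 76.3% and 74.5% to 77.2% and 76.4%. In all 3 classes both KD values were above both control values. The same held over all sites, with 47.5% and 45.9% in control and 53.8% and 52.8% in KD libraries. The KD lists were longer, with 48022 and 46822 peaks. H3K27ac was called in both KD lists at 50.8% of all sites, and in both control lists at 43.8%. By class, both KD lists had it at 74.4% of MYOD-only, 80.9% of common and 30.5% of TWIST2-only sites. The part of list length in these values was not tested. The gap between MYOD-only and TWIST2-only sites was 52.3 and 51.9 points in control and 43.6 and 44.0 points in KD libraries, so it was narrower in both KD libraries than in either control library. The classes were drawn with the control MYOD lists and not the KD lists, and the part of that in the narrowing was not tested.

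MYOD itself was followed from control into KD cells with 1 control list choosing the sites and the other standing by as a measure of turnover. Of 34112 TWIST2 sites with no peak in MYOD control list 1, 9.19% had one in control list 2, and 15.9% and 15.1% had one in the KD lists. Starting from control list 2, the values were 9.99% in control list 1 and 16.1% and 15.2% in the KD lists. MYOD peaks at TWIST2 sites lacking them were thus more frequent in KD lists than in the other control list, from either start. The MYOD KD lists were longer, with 52510 and 48003 peaks, and the part of that length was not tested. Over all TWIST2 sites, MYOD was present at 28.8% and 28.2% in control and 32.2% and 31.2% in KD libraries. In both KD lists MYOD was called at 31.1% of all sites, at 70.2% of common, 49.6% of MYOD-only and 10.8% of TWIST2-only sites. The rule used the control MYOD lists, so the last 3 values are a description.

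MYOD peaks away from TWIST2 sites were kept less often. Of 13830 peaks of MYOD control list 1 at a TWIST2 site, 76.0% were found again in control list 2, and 73.2% and 71.5% in the KD lists. Of 31144 peaks away from TWIST2 sites, 60.6% were found in control list 2, and 51.5% and 48.8% in the KD lists. From control to KD the share at TWIST2 sites was thus 2.81 to 4.48 points lower and that away from them 9.05 to 11.7 points lower. Peaks at TWIST2 sites stood higher in the MYOD lists. Averaged over 10 equal groups by list position, the shares were 71.7% in control list 2, 69.7% and 68.0% in KD for peaks at TWIST2 sites, and 62.5%, 53.2% and 50.6% for peaks away from them. Peaks at TWIST2 sites were the more often kept in 10 of 10 groups in each of these lists. Starting from control list 2, the values at TWIST2 sites were 77.4%, 73.9% and 72.9%, and away from them 63.2%, 53.6% and 50.9%.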

How the data were processed

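Peak lists of 14 ChIP-seq libraries were used, and the 10 input libraries were not analysed here. Per the submitters' processing notes, the tools included HOMER 4.4 and bedtools 2.29.2 as well as SAMtools 0.1.19 and Bowtie2 2.3.4.3, and the build was hg19 (GRCh37). The deposited Ty1, MYOD and H3K27ac lists hold positions without a score, each from 1 library, and their thresholds are not given in the sources used here. SMARCA4 lists were used for positions alone.

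Groups came from the sample titles. Distances were taken between peak centres. H3K27ac was counted at a site when a peak overlapped its window by at least 1 bp, and SMARCA4 or MYOD KD when a peak centre lay within 200 bp. Shares have 95% Wilson intervals. Tests were exact sign flips and exact permutations over libraries. Named regions were, per class, the 5 sites highest in the lists and the 4 clusters with the most sites of that class, and the 3 windows of 1 Mb with the largest excess each way. Classes, lists and rules were chosen with earlier results of these data known. Sequences, E-boxes and genes were not analysed here, since no hg19 reference was used. The class assignment was tested on simulated sites spaced well apart, so it was not tested where more than 1 possible partner lies near. Scripts ran in Python 3.11.15 with pandas 2.3.3, numpy 2.4.6, matplotlib 3.10.9 and scipy 1.17.1.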

Additional observations from a re-analysis of the deposited data

How the results depend on the processing

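All H3K27ac differences between classes kept their direction in every alternative run but 1: within 10 equal groups by MYOD list position, chosen after seeing the data, common minus MYOD-only sites was -1.906 points. With libraries left out in turn, this difference ranged from 2.258 to 3.699, common minus TWIST2-only from 52.73 to 56 and MYOD-only minus TWIST2-only from 49.04 to 53.75.

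The share of TWIST2 sites that were common was 16.29% with windows of plus and minus 50 bp, 27.48% with 250 bp, 21.47% at deposited widths, 27.87% with a peak in 1 list sufficing, 25.43% with sites of 1 factor required to lack the other in both lists and 27% with equal numbers of peaks. The share of MYOD sites was 28.41%, 43.37%, 36.83%, 45.92%, 44.85% and 29.68% in the same order. With libraries left out they ranged from 18.12% to 28.83% and from 30.73% to 45.75%. The median centre distance was 29.5, 57 and 48.5 bp with 50 bp, 250 bp and 1 list, 39.5 bp with equal numbers, 41.5 bp without chromosomes 8 and 20, and 46 to 46.5 bp with libraries left out.

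The share of common sites with a same-class neighbour was 15.77% with 50 bp, 24.13% with 250 bp, 41.14% with 1 list and 19.48% with equal numbers. For TWIST2-only sites it was 39.57%, 39.38%, 59.53% and 35.69%, with 40.92% at deposited widths and 34.61% under the stricter classes. For MYOD-only sites it was 56.28% with 1 list and 25.76% under the stricter classes. Neighbour distances of 5 and 25 kb gave 5.716% and 36.54% of common, 15.1% and 63.39% of TWIST2-only and 16.53% and 52.16% of MYOD-only sites. Leaving libraries out gave 23.63% to 24.68% of common, 37.33% to 54% of TWIST2-only and 29.94% to 51.87% of MYOD-only sites.

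The labels do not say that replicate numbers pair the libraries. With a replicate block, which classes sites from same-numbered single lists and averages both numbers, 24.41% of TWIST2 and 40.11% of MYOD sites were common, the median distance was 51.5 bp, and 29.34% of common, 50.72% of TWIST2-only and 46.34% of MYOD-only sites had a same-class neighbour. The H3K27ac differences were then 53.07, 2.983 and 50.08 points for common minus TWIST2-only, common minus MYOD-only and MYOD-only minus TWIST2-only. Except where an alternative's own construction sets the value, the cause was not tested.

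No list but those of SMARCA4 carries a depth or score, so an uncalled site cannot be told apart from one missed at low depth, and 2 libraries per group bound every test.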

Other observations

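Seen from the H3K27ac peaks, MYOD-only sites were the most frequent single content. Of the 36679 peaks of control list 1, 25.6% held MYOD-only sites alone, 22.2% a common site, 13.9% TWIST2-only sites alone, 7.22% both TWIST2-only and MYOD-only sites without a common site, and 31.1% no site. In list 2 the shares were 26.3%, 22.7%, 13.4%, 7.35% and 30.2%. Peaks without a site were the narrowest, with medians of 1150.5 and 1182 bp, and peaks with separate TWIST2-only and MYOD-only sites the widest, with 2770 and 2761 bp. The chance of holding a site goes up with width, and the part of width was not tested.

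SMARCA4 in TWIST2 KD cells lay at 19.1% and 19.8% of common, 12.7% and 12.6% of MYOD-only and 4.22% and 5.18% of TWIST2-only sites in the 2 libraries. Over all sites the shares were 8.97% and 9.57% in KD and 10.1% and 20.6% in control libraries, so both KD values were below both control values there too. The class order was that of the control libraries. For common and MYOD-only sites both KD values were below both control values (exact permutation p = 0.333 each), but the 2 control libraries differed from each other by more than control library 1 differed from either KD library. For TWIST2-only sites both KD values lay between the control values, 3.24% and 7.99%.

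MYOD was called in both KD lists at 6.05% of the 30978 TWIST2-only sites without a peak in either MYOD control list. This share was 9.03% of the 4530 with H3K27ac in both control lists and 5.21% of the 25297 with H3K27ac in neither. A site chosen for no peak in both control lists can only gain one, so these values are a description.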
